A study of Mus musculus with 12 samples.

Results

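A low dose of a strong agonist peptide was set beside a high dose of a weak one: T cells taken 48 h after 0.2 µg of MCC were compared with T cells taken 48 h after 2 µg of 102S, so that the weak peptide was given at a dose 10 times as high. The 6 arrays were chosen by the peptide and dose in their titles, 3 for each group, out of the 12 arrays of the study. Both groups held T cells carrying the transgenic 5CC7 T cell receptor, for which the labels name MCC as a strong and 102S as a weak agonist. B10.A mice were given such cells through the tail vein and then the peptide, in PBS, by the same route. Lymph nodes were pooled, the 5CC7 cells were sorted by flow cytometry, and 100 ng of their total RNA was amplified by in vitro transcription for 16 h and hybridised to an Affymetrix mouse array. The other 6 arrays held the same cells after 2 µg of MCC or 0.2 µg of 102S, and no unstimulated cells were analysed here. Of 22690 probe sets, 20393 carried 1 gene symbol, and 12423 of those, for 7945 genes, passed a filter on low values and were tested.

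The labels limit what the groups can show. Nodes were pooled, the arrays are called experimental replicates without a statement that they came from separate animals, and p-values therefore measure the spread between these arrays. In such bulk RNA, fewer cells in a state and less of its RNA per cell cannot be told apart.

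A T cell receptor reads both how well a peptide fits and how many copies of it are displayed on class II molecules. Receptor signalling through calcium, Ras and NF-κB induces costimulatory receptors and transcription factors such as Irf4 and Egr2, drives entry into the cell cycle, and silences the programme of resting cells that is run by Klf2 and Foxo1. Sustained signalling also induces receptors that dampen the response, among them PD-1 and CTLA-4. The comparison asks which of these outputs a higher dose of a weak peptide can and cannot replace.

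The arrays carried T cell transcripts and fell into sets by replicate number as well as by group. All 8 T cell markers (Cd3d, Cd3e, Cd3g, Cd247, Cd4, Cd5, Cd28 and Thy1) were tested and 0 passed the threshold; their summed level (log2 of the sum of linear values) ran from 14.09 to 14.23 log2 in the MCC group and from 14.28 to 14.37 in the 102S group. Replicate 1 of all 4 groups had the Xist level of female cells, and the other 8 arrays had the Y-linked transcripts of male cells. In the MCC group the β-actin control read 1.62 ± 0.81 log2 higher at its 3′ end than at its 5′ end, a gap that widens with poorer RNA, and in the 102S group the gap was 1.24 ± 0.41 log2 (SD, n = 3; 2-sided exact permutation p = 0.5, where 3 arrays against 3 cannot give less than 0.1). B cell and class II markers summed to between 10.76 and 10.86 log2 with MCC and between 11.13 and 11.21 with 102S. These sums mainly followed Ighm, whose MCC mean of 10.47 log2 lay far above that of the next highest marker, Cd74, at 7.23. Of the 5 that were tested, Cd79b (0.87 log2, limma adjusted p = 0.223), Cd22 (0.08 log2, 0.911) and H2-Eb1 (-0.12 log2, 0.819) did not pass. The B cell genes Cd79a, Ms4a1 and Pax5 lay under the filter. Ighm was lower with MCC (-0.53 log2, limma adjusted p = 0.0109) and Cd74 was higher (1.19 log2, 0.0138). Both calls were lost without replicate 1 of 102S and without replicate 2 of MCC, and that of Cd74 also without replicate 2 of 102S and replicate 3 of MCC. Markers of CD8 T cells and NK cells summed to between 8.58 and 8.95 log2 with MCC and between 9.06 and 9.14 with 102S, and those of myeloid cells to between 8.78 and 9.2 and between 8.85 and 9.15. Of the 5 and 4 markers tested in these lists, 0 passed the threshold. The part of these marker levels in the results that follow was not tested.

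A small set of transcripts separated the groups, led upward by Ifitm2, Wnt10a and Tnfrsf4 and downward by Fasl, Klf2 and Cxcr4. Of 13556 probe sets tested, 336 (2.48%) passed an adjusted p of 0.05, 212 (1.56%) of them higher with 0.2 µg of MCC and 124 (0.915%) lower. Calls within gene lists, given below, stand beside these shares. By 1 probe set per gene, 147 genes were higher and 88 lower. Large differences were more often upward: 95 probe sets were higher by at least 1 log2, which is a 2-fold difference, and 19 were lower by that much. The 3 arrays of one group lay apart from the 3 of the other in all 336, as they did in 22.9% of all tested probe sets. The median difference over all tested probe sets was -0.04 log2. Centring each array on its median called 383 probe sets, of which 51.2% were higher with MCC, against 63.1% for the values as deposited. The share higher was 53.8% with a filter at the 60th percentile and 44.2% without replicate 1 of MCC. In the other omissions it lay between 65.0% and 69.9%.

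The number of calls depended on which arrays entered the fit. Leaving out replicate 1, 2 or 3 of the MCC group called 654, 93 or 117 probe sets, and leaving out replicate 1, 2 or 3 of the 102S group called 85, 157 or 176. Deviations from the group mean correlated between arrays of the same number in the 2 groups. Replicates 2 and 3 also correlated across numbers (0.434 and 0.342). With the replicate number as a block, 1147 of 13556 probe sets were called, 483 higher and 664 lower, among them all 336. The block's counts within gene lists, given below, stand beside these counts over all tested probe sets. Leaving out the 2 arrays with the widest β-actin gap, of which replicate 3 of the MCC group is one, called 224 probe sets, and adding that gap as a covariate called 1176. Beside the marker genes Ighm and Cd74, 60 genes named here passed the test, of which 28 kept their call whichever array was left out and 27 lost it in at least 3 of the 6 omissions. Replicate 2 of the MCC group cost 31 of the 60 calls when it was left out, replicate 1 of the 102S group 28, replicate 3 of the MCC group 27, and replicates 2 and 3 of the 102S group 19 and 17. Leaving out replicate 1 of the MCC group cost 1.

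**Figure D1:**
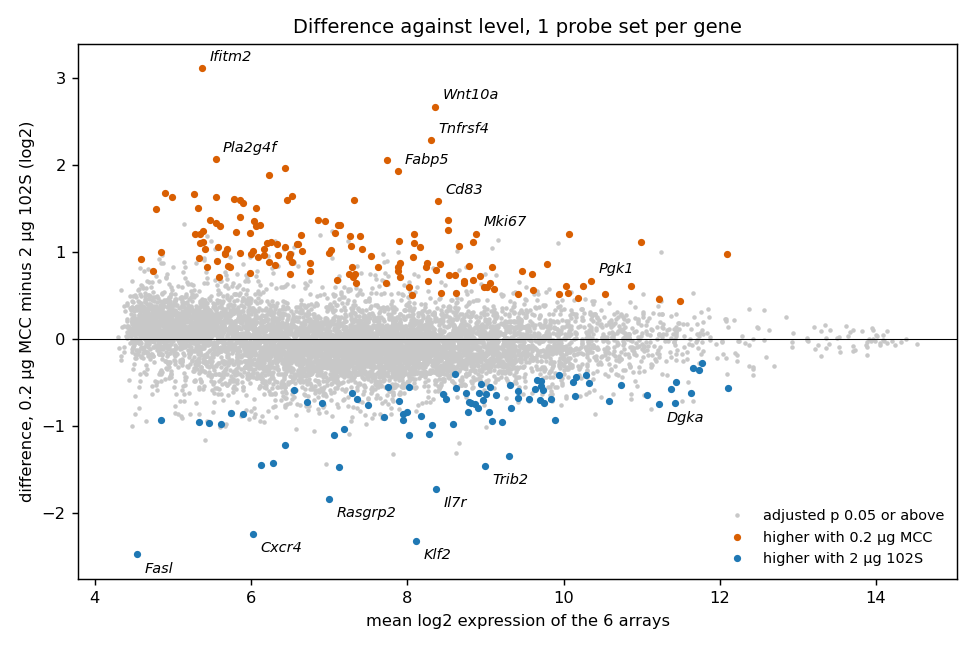
Each point is 1 gene, placed by its mean log2 expression over the 6 arrays (horizontal axis) and by the log2 difference, 0.2 µg MCC minus 2 µg 102S (vertical axis); orange and blue points passed a limma adjusted p of 0.05 and grey points did not. The 147 genes higher with MCC reach 3.11 log2 (Ifitm2) and the 88 lower genes reach -2.48 log2 (Fasl).

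Genes of cell division were higher with 0.2 µg of MCC than with 2 µg of 102S. Of 26 tested genes of mitosis and the spindle, 11 rose, 0 fell and 15 did not pass the test, and the median difference was 0.95 log2 against -0.04 over all tested probe sets. Of 26 tested genes of DNA replication, 13 rose, 0 fell and 13 did not pass, with a median of 0.85 log2. All 26 differences in each list lay above 0. Of all tested probe sets, 1.56% were called higher and 0.915% lower.

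Mki67, the proliferation marker Ki-67, read 9.31, 9.46 and 9.69 log2 on the MCC arrays and 7.60, 8.67 and 8.56 on the 102S arrays. The groups did not overlap, and the first 102S array lay about 1 log2 under the other 2 of its group. The difference was 1.21 ± 0.24 log2 (SE), 2.31-fold, with a limma adjusted p of 0.0215. Both group means, 9.48 and 8.28, stood far above the 3.96 log2 of 0.2 µg of 102S, and 2 µg of MCC gave 10.03. The call was lost without replicate 2 or replicate 3 of the MCC group, while the difference stayed between 0.87 and 1.4 log2 over the alternatives and omissions.

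Other genes of mitosis that rose act at separate steps. Top2a, the topoisomerase that untangles replicated chromosomes, averaged 8.63 ± 0.25 with MCC and 7.53 ± 0.38 with 102S (log2, SD, n = 3), 2.14-fold apart. Kif11, the motor that pushes spindle poles apart, read 6.19, 6.15 and 6.28 with MCC against 5.07, 5.11 and 5.34 with 102S, 2.04-fold apart. Prc1, which bundles microtubules at the midzone of the spindle, was 1.94-fold higher, and Cdc20, the activator of the anaphase-promoting complex, was 1.78-fold higher. Every array of MCC lay above every array of 102S for these 4 genes, and the groups lay apart in all 336 called probe sets. Other probe sets of Kif11, Prc1 and Cdc20 were higher as well, but 1 of 2 for Kif11, the 1 for Prc1 and both for Cdc20 did not pass the threshold. The call of Top2a held in every omission, those of Prc1 and Cdc20 were lost without replicate 1 of 102S and without replicates 2 or 3 of MCC, and that of Kif11 also without replicate 2 of 102S.

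Promoters of genes that rose together are shown because several carry the same short motif, the cell cycle homology region (CHR), through which the DREAM complex represses mitosis genes in resting cells. The windows below are from RefSeq (GRCm38.p6), run 5′ to 3′ on the strand of the gene, and lie within 250 bases before the start of the gene. Capitals mark the letters TTTGAA, or TTCAAA where the motif lies on the other strand, as in Kif11.
Mki67, chr7:135716432-135716535, minus strand: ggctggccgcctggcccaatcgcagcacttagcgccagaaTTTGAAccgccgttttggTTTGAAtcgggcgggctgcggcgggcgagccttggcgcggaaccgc
Kif11, chr19:37376323-37376381, plus strand: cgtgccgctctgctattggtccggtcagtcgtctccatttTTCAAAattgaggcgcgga
Prc1, chr7:80294406-80294475, plus strand: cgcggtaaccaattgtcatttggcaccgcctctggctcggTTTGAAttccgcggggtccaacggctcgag
Cdc20, chr4:118437344-118437401, minus strand: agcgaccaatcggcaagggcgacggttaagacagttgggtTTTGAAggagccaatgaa

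Searched on both strands over 250 bases, TTTGAA was found in 8 of the 23 tested mitosis genes that had a promoter sequence (34.8%), and the same 8 also held CCAAT on either strand. Among the 11 mitosis genes that rose, 6 held TTTGAA (54.5%), and 2 of the 12 that did not pass and had a sequence (16.7%). The share was 12.4% among 6496 tested genes with a promoter, 18.3% among all 27025 promoters and 8.33% among 12 DNA replication genes that rose. CCAAT, which can share at most 1 letter with TTTGAA, was in 90.9% of the 11 mitosis genes that rose, 75% of the 12 replication genes that rose and 40.6% of the tested genes. These matches describe letters in a window, and no binding was measured.

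Genes that copy DNA differed by a similar amount. Prim1, a primase subunit, read 8.33, 8.47 and 8.58 log2 with MCC and 7.09, 7.47 and 7.44 with 102S, 2.18-fold apart (limma adjusted p = 0.00292). Lig1, the ligase that joins Okazaki fragments, was 2.05-fold higher, Pole, the leading-strand polymerase, 2.56-fold, and Pola1, the polymerase that extends primers, 1.95-fold. The calls of these 4 genes held whichever of the 6 arrays was left out. Chek1, the checkpoint kinase that guards replication forks, rose further: 6.94, 6.98 and 7.57 with MCC against 4.86, 5.51 and 5.49 with 102S, 3.67-fold apart (limma adjusted p = 0.00214). The Chek1 mean with 0.2 µg of MCC, 7.16 log2, was also above the 6.44 of 2 µg of MCC, a difference not tested here. Cenpk, a kinetochore protein, was 3.11-fold higher, though its call was lost without any one array other than replicate 1 of the MCC group.

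With the replicate block, 20 of the 26 mitosis genes and 23 of the 26 replication genes rose and 0 fell. The counts leaned on single arrays: 3 mitosis genes were called without replicate 1 of 102S, and 1 and 2 without replicates 2 and 3 of MCC, against 7 when the 2 arrays with the widest β-actin gap were dropped. Replication genes called numbered 6 without replicate 1 of 102S, and 7 and 6 without replicates 2 and 3 of MCC. Of 14 tested G1 cyclins, CDK inhibitors and pocket proteins 0 passed in limma, with 3 at an unadjusted p under 0.05, which 15.6% of all tested probe sets reached, and a median of 0.02 log2. The block called 1 of them higher and 2 lower, among them Cdkn1b, the inhibitor p27 (-0.69 log2, limma adjusted p 0.372 without and 0.0378 with the block).

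**Figure D2:**
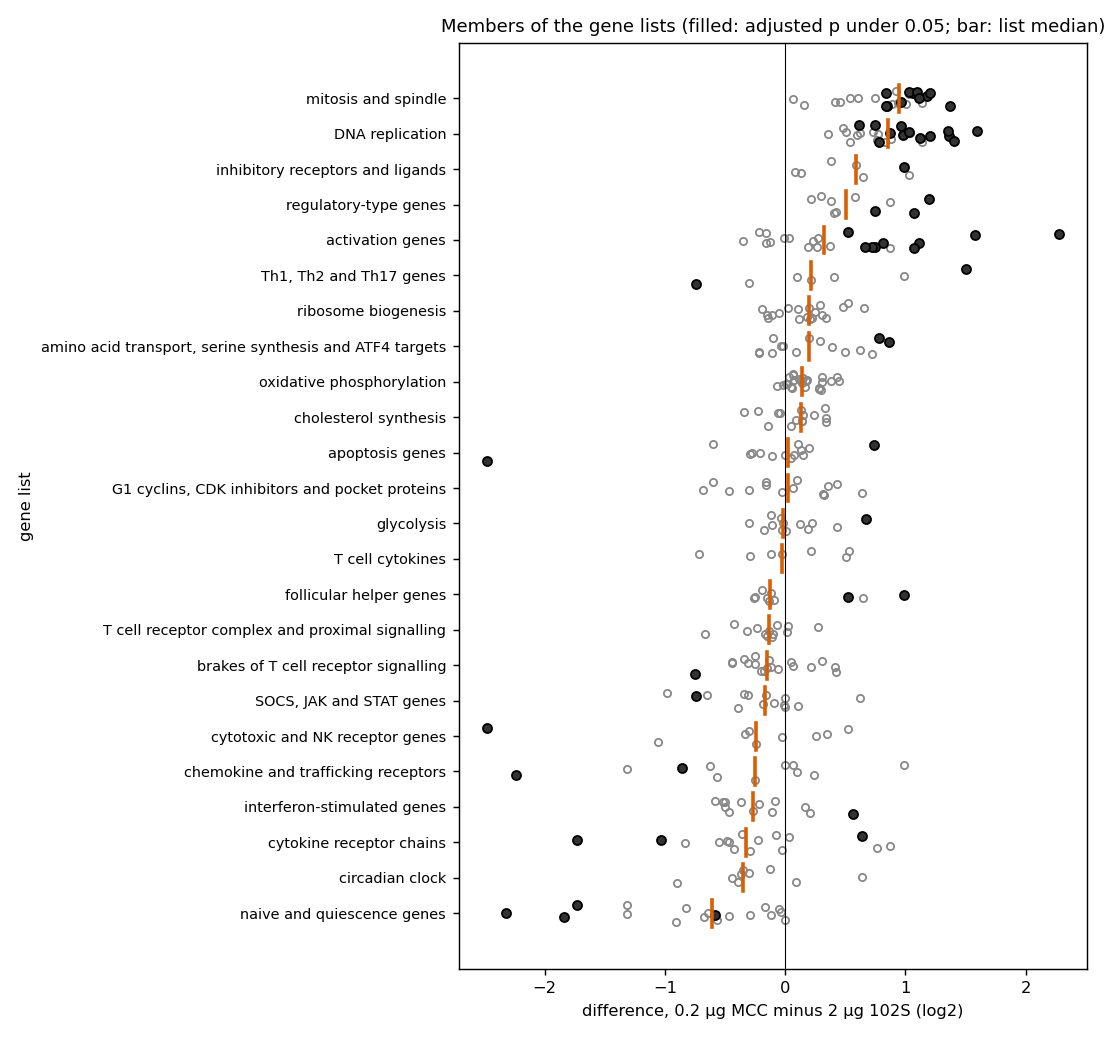
Each point is 1 tested member of a gene list (vertical axis), placed by its log2 difference, 0.2 µg MCC minus 2 µg 102S (horizontal axis); filled points passed a limma adjusted p of 0.05 and the orange bar is the list's median. The mitosis and replication lists lie wholly above 0 with medians of 0.95 and 0.85, and the naive and quiescence list lies wholly below 0 with a median of -0.61.

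Activation genes split. Of 22 tested, 9 rose with MCC, 0 fell and 13 did not pass, against 1.56% of all tested probe sets called higher. The median was 0.32 log2. The 9 were the costimulatory receptors Tnfrsf4, Tnfrsf9, Tnfrsf18 and Icos, the surface proteins Cd44 and Cd83, the transferrin receptor Tfrc, and the transcription factors Irf4 and Egr2. The count was 5 without replicate 1 of 102S and 4 without replicate 2 of MCC.

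Tnfrsf4, which encodes the costimulatory receptor OX40, separated the groups most among them. It read 9.20, 9.67 and 9.45 log2 with MCC and 6.89, 7.35 and 7.25 with 102S, a difference of 2.28 ± 0.19 log2 or 4.84-fold (limma adjusted p = 0.000146). The 2 µg dose of 102S had brought it little above the 6.62 log2 of 0.2 µg of 102S, whereas 0.2 µg of MCC stood above the 8.89 log2 of 2 µg of MCC. Cd83, an activation marker of lymphocytes, read 9.12, 9.44 and 8.98 against 7.24, 7.88 and 7.69, 2.98-fold apart. Cd44, the hyaluronan receptor of antigen-experienced T cells, read 9.50, 9.53 and 9.17 against 8.15, 8.38 and 8.33, 2.17-fold apart. The groups lay clear of each other in all 3, and each call held in every omission, although a second, dimmer Cd44 probe set did not pass (0.74 log2, limma adjusted p = 0.179).

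Smaller rises were seen in Tnfrsf9, the costimulatory receptor 4-1BB (2.10-fold), Irf4, a transcription factor whose level follows receptor signal strength (1.76-fold), Tnfrsf18, the receptor GITR (1.67-fold), and Tfrc (1.65-fold). Egr2, a transcription factor induced by the T cell receptor, was 1.58-fold higher, and Icos, the inducible costimulator, 1.44-fold. Of these 6 calls only that of Tfrc held in all 6 omissions. The call of Irf4 was lost in each of them, and that of Icos in all but the omission of replicate 1 of MCC. Tnfrsf9 lost its call without replicates 1 or 3 of 102S and replicates 2 or 3 of MCC, Tnfrsf18 without replicate 1 of 102S or replicate 2 of MCC, and Egr2 without replicate 2 of either group. Dimmer probe sets of Icos (0.35 log2, limma adjusted p = 0.335) and of Tfrc (0.27 log2, 0.502) did not pass. Il2ra, the high-affinity IL-2 receptor chain, read 5.00, 5.26 and 5.59 with MCC and 4.36, 4.43 and 4.44 with 102S. The 102S arrays lay under the filter level of 4.48 log2, so that the difference of 0.87 log2 may be understated. It missed the threshold (limma adjusted p = 0.0543) and passed with the replicate block (0.0255).

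The early receptor targets Nr4a1 and Myc did not pass the test. Nr4a1, the orphan receptor Nur77, differed by 0.23 log2 with a 95% interval from -0.20 to 0.67, and Myc, a growth regulator, by 0.27 log2 with an interval from -0.45 to 0.99. Both intervals lay within 1 log2 of 0, and Myc was called higher with the β-actin gap as a covariate (limma adjusted p = 0.0234). Of 13 tested genes of the receptor complex and its first signalling steps 0 passed in limma, with 2 at an unadjusted p under 0.05, a share near the 15.6% of all probe sets, and a median of -0.14 log2. With the block 2 of them were lower: Cd247, the ζ chain (-0.67 log2, limma adjusted p 0.0736 without and 0.00225 with the block), and Prkcq, the kinase PKC-θ (-0.43 log2, 0.19 and 0.00896).

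Among genes that restrain the response, Pdcd1 differed and most others did not pass. Pdcd1, which encodes PD-1, read 7.56, 7.58 and 7.35 log2 with MCC and 6.52, 6.64 and 6.35 with 102S, 1.99-fold apart (limma adjusted p = 0.00403), with no overlap. It was the 1 of 7 tested inhibitory receptors and ligands that passed, and the list median was 0.59 log2. Ctla4, the CD28 competitor, read 9.51, 8.70 and 8.60 against 8.56, 8.77 and 8.35. Its groups overlapped, and the interval of the difference ran from -0.32 to 1.08 log2. Ctla4 was called higher with the β-actin gap as a covariate (limma adjusted p = 0.00935). Lag3, which binds class II molecules, differed by 0.08 log2 with an interval from -0.43 to 0.60.

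Cd200, the ligand of an inhibitory myeloid receptor, was at 8.76 ± 0.26 log2 with MCC and 8.11 ± 0.14 with 102S without overlap, and missed the threshold (limma adjusted p = 0.0606). It passed in 6 of 13 alternatives, among them the replicate block (0.00456) and quantile normalization. Pdcd1lg2, the PD-1 ligand PD-L2, differed by 1.03 ± 0.30 log2, with a limma adjusted p of 0.113 without and 0.0101 with the block. The block thus called 3 of the 7, all higher with MCC. Of 19 tested brakes of receptor signalling, 1 fell and 0 rose: Dgka, the kinase that removes diacylglycerol, at 10.84 ± 0.20 with MCC and 11.60 ± 0.14 with 102S. The block called 2 of the 19 lower. The call of Dgka was lost without replicate 1 of 102S and without replicates 2 or 3 of MCC.

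The remaining large rises fell outside the lists. Wnt10a, a secreted Wnt ligand, read 9.77, 9.71 and 9.60 log2 with MCC and 6.49, 7.48 and 7.10 with 102S. The MCC arrays lay within 0.2 log2 of each other and more than 2 log2 above the highest 102S array, and the difference was 2.67 ± 0.25 log2, 6.38-fold (limma adjusted p = 0.000271). Tiam1, which activates the GTPase Rac, read 7.63, 7.47 and 7.15 against 5.45, 5.58 and 5.34, 3.89-fold apart (7.12e-05). The Tiam1 mean was 4.81 log2 at the low and 5.46 at the high dose of 102S, and 7.42 at the low and 8.39 at the high dose of MCC.

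Ifitm2, an interferon-induced membrane protein that blocks virus entry, read 6.26, 7.34 and 7.18 with MCC and 3.60, 3.81 and 4.03 with 102S. The 102S mean lay under the filter level, so 3.11 log2 is a lower limit and no fold is given. Fabp5, a carrier of fatty acids, read 8.48, 9.04 and 9.0 against 6.76, 6.92 and 7.06, 3.81-fold apart (limma adjusted p = 0.000253). Pla2g4f, a cytosolic phospholipase A2, was 4.20-fold higher, Marcksl1, an actin-binding protein, 4.16-fold, and Plpp1, a phospholipid phosphatase, 3.10-fold. Plscr1, a phospholipid scramblase, and Serpinc1, the gene of antithrombin, were higher by at least 1.67 and 1.68 log2, since their 102S means also lay under the filter. All 3 MCC arrays exceeded all 3 102S arrays for each of these 7, as the rule that chose them required. The calls of Marcksl1, Plscr1 and Serpinc1 were lost without replicate 1 of 102S and without replicate 2 of MCC, that of Marcksl1 also without replicate 3 of MCC and that of Serpinc1 without replicate 2 of 102S. Of 3 dimmer Marcksl1 probe sets, 1 passed (1.85 log2, limma adjusted p = 0.00105). Those at 1.07 and 1.46 log2 did not (limma adjusted p = 0.178 and 0.129).

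**Figure D3:**
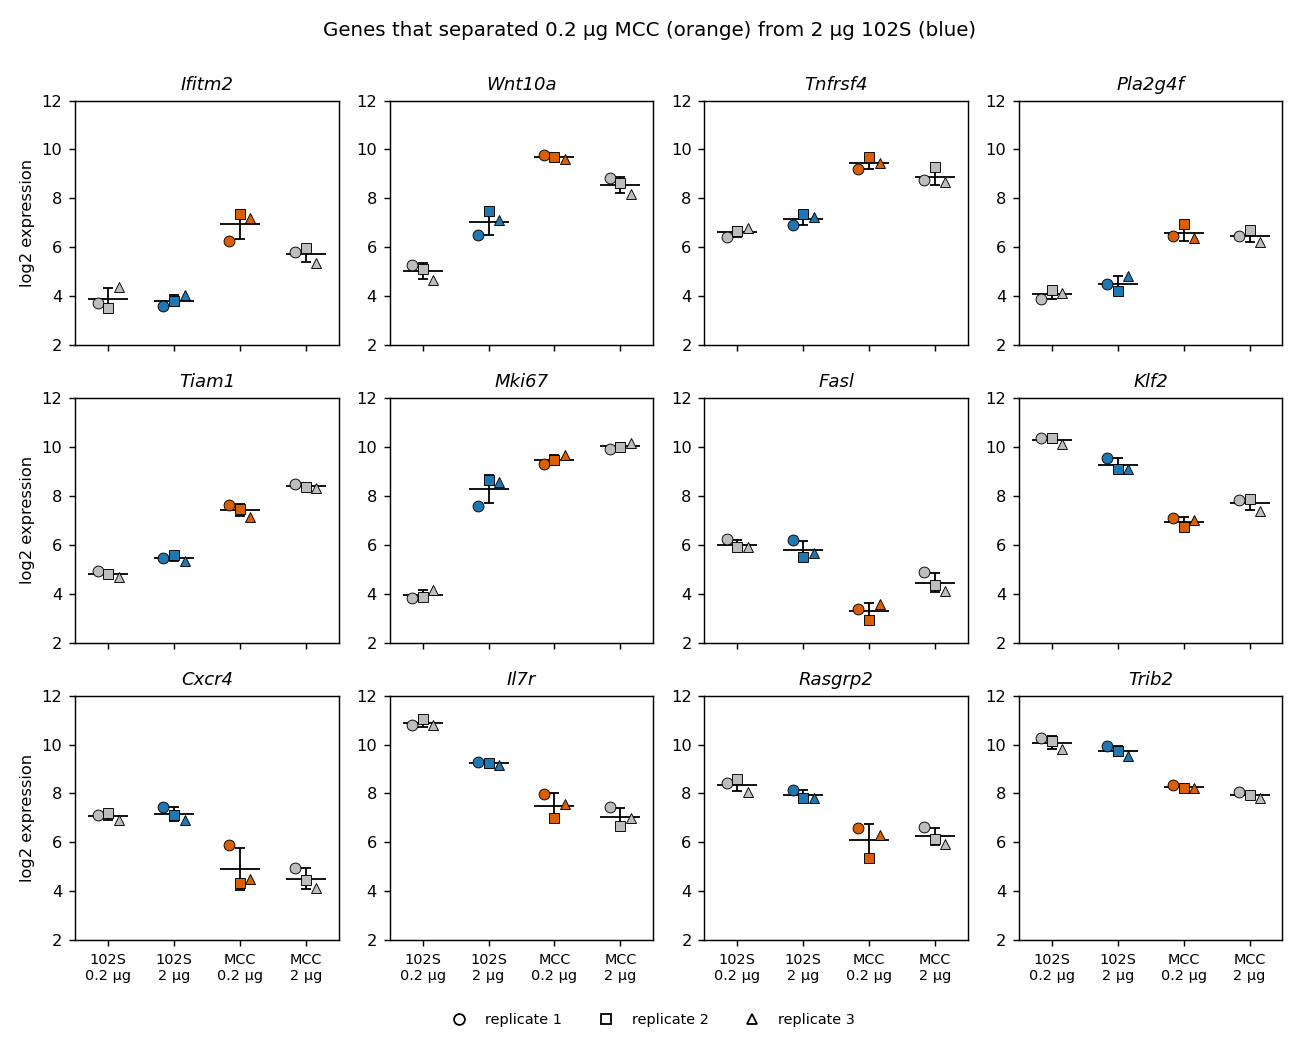
Log2 expression (vertical axis) of 12 genes on all 12 arrays, by peptide and dose (horizontal axis); symbols give the replicate number, the long bar the mean and the whiskers the SD of 3 arrays. Orange (0.2 µg MCC) and blue (2 µg 102S) do not overlap in any of the 12 panels, as in all 336 called probe sets. Wnt10a, Tnfrsf4 and Ifitm2 have higher means with 0.2 µg than with 2 µg of MCC.

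Genes of resting T cells were lower with 0.2 µg of MCC than with 2 µg of 102S. Of 18 tested genes of naive and quiescent cells, 4 fell, 0 rose and 14 did not pass, against 0.915% of all tested probe sets called lower. All 18 differences lay below 0 with a median of -0.61 log2. The 4 were Klf2, Il7r, Rasgrp2 and Satb1. With the replicate block 11 of the 18 fell, and 8 fell without replicate 1 of MCC. The summed markers of CD8 T and NK cells, given above, were lower with MCC too, but 0 of the 5 tested passed. Klrd1 differed most (-1.06 log2, limma adjusted p = 0.143), beside Cd8a (-0.19 log2, 0.744) and Cd8b1 (-0.25 log2, 0.585).

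Klf2, the transcription factor that keeps T cells quiescent and recirculating, read 7.09, 6.72 and 7.03 log2 with MCC and 9.57, 9.12 and 9.11 with 102S. No array came within 2 log2 of the other group, and the difference was -2.32 ± 0.17 log2, 4.99-fold (limma adjusted p = 7.12e-05). The level with 2 µg of 102S lay nearer to the 10.28 log2 of 0.2 µg of 102S than to the 7.70 of 2 µg of MCC. S1pr1, the egress receptor that Klf2 induces, read 7.42, 6.95 and 7.08 against 9.05, 8.31 and 8.04. Its groups did not overlap and differed by -1.32 ± 0.32 log2, which missed the threshold (limma adjusted p = 0.0557). It passed with the replicate block (0.00245), without replicate 1 of MCC, and with median centring or quantile normalization. S1pr4, a relative of S1pr1 on lymphocytes, fell by 0.86 log2 and with Cxcr4 was 1 of the 2 that passed among 11 tested chemokine and trafficking receptors (5 lower and 1 higher with the block). The S1pr4 result had its call lost without replicates 1 or 3 of 102S and replicates 2 or 3 of MCC.

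Il7r, the receptor chain for the survival cytokine IL-7, read 7.97, 6.98 and 7.56 with MCC and 9.28, 9.25 and 9.18 with 102S, 3.33-fold apart (limma adjusted p = 0.00292). Rasgrp2, an exchange factor for Rap1 in integrin adhesion, was 3.57-fold lower with MCC, and Satb1, a chromatin organiser, 1.50-fold. The 2 dimmer Rasgrp2 probe sets also passed with smaller differences, -0.86 and -1.0 log2 against -1.84. Unlike those of Il7r and Rasgrp2, the call of Satb1 was lost without replicate 1 of 102S and without replicates 2 or 3 of MCC. Cxcr4, the receptor for CXCL12, read 5.89, 4.35 and 4.51 with MCC and 7.45, 7.11 and 6.90 with 102S. One MCC array stood between the others and the 102S group, and the mean difference was -2.24 ± 0.35 log2, 4.73-fold. For Cxcr4, 2 µg of 102S at 7.15 log2 was near 0.2 µg of 102S at 7.07, and 0.2 µg of MCC at 4.91 near 2 µg of MCC at 4.52.

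Fasl, the ligand that triggers death through Fas, fell below the filter level with MCC: 3.39, 2.94 and 3.58 log2 against 6.18, 5.50 and 5.66 with 102S. The MCC mean lay under the filter level, so the difference of -2.48 log2 may be understated in size (limma adjusted p = 0.000433). The groups did not overlap, and 2 µg of 102S was again near the 6.01 log2 of 0.2 µg of 102S. Fasl was the 1 of 9 tested cytotoxic and NK receptor genes that passed, and with the block 2 were lower and 1 higher. Klrd1, the CD94 chain of NK receptors, read 6.45, 5.46 and 6.91 against 7.51, 7.13 and 7.35 without overlap. It was not called (limma adjusted p = 0.143) except with the block (0.0338) or with the β-actin gap as a covariate.

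Other falls with MCC were in Trib2, a pseudokinase (8.36, 8.24 and 8.22 log2 against 9.93, 9.75 and 9.52, 2.75-fold), in Rflnb, a filamin-binding protein (2.54-fold), and in the long noncoding RNA Lncpint (2.74-fold). Cdc42ep3, an effector of the GTPase Cdc42, was 2.77-fold lower, Art4, of the ADP-ribosyltransferase family, 2.70-fold, Hivep1, a zinc finger transcription factor, 2.32-fold, and Pde7a, a phosphodiesterase that breaks down cAMP, 2.16-fold. The calls of Trib2, Rflnb and Lncpint held in every omission. Those of Art4, Hivep1 and Pde7a were lost in all but the omission of replicate 1 of MCC, that of Cdc42ep3 without replicate 1 of 102S or replicate 2 of MCC, and the 3 dimmer probe sets of Pde7a did not pass.

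Follicular helper and regulatory-type genes that passed were all higher with MCC. Of 10 tested follicular helper genes 2 rose, against 1.56% of all probe sets; they were Pdcd1 and Icos, and the median was -0.13 log2. The replicate block added Cd200, given above. Bcl6, the defining transcription factor of follicular helper cells, read 7.90, 7.86 and 7.77 with MCC and 8.17, 8.06 and 7.88 with 102S, an interval from -0.50 to 0.10 log2. The groups overlapped at 1 array of each.

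Of 10 tested regulatory-type genes, 3 rose and 0 fell: Capg, an actin-capping protein, and the receptors Tnfrsf9 and Tnfrsf18. Capg read 8.78, 8.75 and 8.52 log2 with MCC and 7.44, 7.60 and 7.40 with 102S, 2.30-fold apart (limma adjusted p = 0.000493), and its call held in every omission. The block added Il2ra, given above. Foxp3, the transcription factor that defines regulatory T cells, lay under the filter and averaged 4.04 ± 0.37 with MCC and 3.99 ± 0.21 with 102S.

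Of 7 tested Th1, Th2 and Th17 genes, Ahr, a ligand-activated transcription factor, rose (1.50 ± 0.31 log2) and Stat4, which relays IL-12 signals, fell (-0.74 ± 0.13 log2). Both calls were lost without replicate 1 of 102S and without replicates 2 or 3 of MCC, that of Ahr also without replicate 3 and that of Stat4 without replicate 2 of 102S. Gata3, the Th2 transcription factor, differed by -0.30 log2 with an interval from -0.60 to -0.01 and did not pass. Ccr6, the receptor for CCL20, read 5.18, 5.94 and 4.91 against 4.55, 4.15 and 4.38. The 102S mean of Ccr6 lay under the filter, and the difference of at least 0.99 log2 did not pass (limma adjusted p = 0.0842), but did with the replicate block (0.0248), the sex type block and the β-actin covariate. Tbx21, the Th1 transcription factor, Ifng, Il21 and Prdm1, the factor Blimp-1, all lay under the filter with both groups at or below 4.17 log2.

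Few transcripts of cytokine receptors and their signalling proteins passed the test. Of 16 tested cytokine receptor chains, Tgfbr1, a TGF-β receptor, rose 1.56-fold, and Il7r and Il18r1, an IL-18 receptor chain, fell, while the block called 3 higher and 4 lower. Over all tested probe sets, 1.56% were called higher and 0.915% lower without the block. Il18r1 read 6.83, 6.71 and 6.49 log2 with MCC and 7.88, 7.48 and 7.78 with 102S, 2.05-fold apart, and 0.2 µg of MCC lay below the means of the other 3 groups, which were between 7.71 and 8.61. The call of Il18r1 held in every omission, and that of Tgfbr1 was lost without replicates 2 or 3 of either group. Socs3, an inhibitor of cytokine receptor signalling, read 6.68, 6.72 and 7.55 against 7.99, 8.63 and 7.28; the groups overlapped and the interval ran from -2.18 to 0.21 log2. Stat4 was the 1 of 14 tested SOCS, JAK and STAT genes that passed, and the block added Cish, an inhibitor of STAT5 signalling, as higher (0.63 log2, limma adjusted p 0.0677 without and 0.0188 with it) and Stat6, which relays IL-4 signals, as lower (-0.39 log2, 0.129 and 0.048). Of 7 tested T cell cytokines 0 passed in limma, with 2 at an unadjusted p under 0.05, which 15.6% of all tested probe sets reached. Ltb, lymphotoxin β, was lower with the block (-0.72 log2, limma adjusted p 0.181 without and 0.00151 with it). Of 9 tested circadian clock genes 0 passed in limma, with 4 at an unadjusted p under 0.05, against the same 15.6%. The block called Nr1d2, a repressor of the clock, lower (-0.90 log2, limma adjusted p 0.111 without and 0.0127 with it). It called Bhlhe40, another clock repressor, higher (0.64 log2, 0.219 and 0.0402).

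Few metabolic and biosynthetic genes passed the test. All 26 tested genes of oxidative phosphorylation and all 15 of cholesterol synthesis had 95% intervals within 1 log2, as did 89.3% of all genes tested, with medians of 0.14 and 0.13 log2. In limma 0 of either list passed, with 4 and 0 at an unadjusted p under 0.05, against 15.6% of all probe sets. Of 19 tested ribosome biogenesis genes 18 had such an interval and 0 passed in limma, with 4 at an unadjusted p under 0.05 and a median of 0.20 log2. The replicate block called 4 of 26 oxidative phosphorylation genes and 4 of 19 ribosome biogenesis genes higher with MCC, against 483 of all 13556 tested probe sets. Among them was Npm1, nucleophosmin (0.34 ± 0.08 log2, limma adjusted p 0.0568 without and 0.0131 with the block).

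Of 13 tested glycolysis genes, Pgk1, phosphoglycerate kinase, rose (10.62, 10.63 and 10.82 log2 against 9.92, 10.09 and 10.02, 1.60-fold). Of 15 tested genes of amino acid transport and serine synthesis, Slc7a5, a transporter of large neutral amino acids, and Phgdh, the first enzyme of serine synthesis, rose 1.72-fold and 1.82-fold, and the block called 4 of the 15 higher. These counts use the brightest probe set of each gene. Dimmer probe sets of Shmt1 (1.29 log2, limma adjusted p = 0.00609) and Psat1 (0.96 log2, 0.0447) also passed without the block. Another dimmer Shmt1 probe set did not (0.31 log2, 0.471). The call of Pgk1 held in every omission, although 1 of its 2 other probe sets did not pass. That of Slc7a5 was lost without replicate 3 of MCC or any 102S array, and that of Phgdh without replicates 2 or 3 of MCC or replicates 1 or 2 of 102S. Bcl2l1, the survival gene of BCL-XL, was the 1 of 14 tested apoptosis genes that rose (1.67-fold) beside Fasl, which fell, and the block added Cflar, the inhibitor c-FLIP, as lower (-0.60 log2, limma adjusted p 0.237 without and 0.0133 with it). Gbp2, a guanylate-binding protein, was the 1 of 13 interferon-stimulated genes that passed (1.48-fold higher), while the median of that list was -0.27 log2. With the block 2 of them were lower, Ifit2 (-0.58 log2, limma adjusted p 0.127 without and 0.00821 with it) and Usp18 (-0.52 log2, 0.213 and 0.0492). The calls of Bcl2l1 and Gbp2 were lost in all but the omission of replicate 1 of MCC.

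For most genes the data bound how far the groups could differ. The 95% interval lay within 1 log2 of 0 for 7092 of 7945 genes, and within 0.5 log2, which is 1.41-fold, for 2795. To see what 2 µg of 102S matched among genes that the peptides can move far, the arrays of 2 µg of MCC were set against those of 0.2 µg of 102S, a comparison that shares no array with the first. It called 3447 of 13556 probe sets (25.4%), 1554 (11.5%) higher and 1893 (14%) lower with MCC. Of 671 genes that passed there with at least 1 log2, 360 had an interval within 1 log2 between 0.2 µg of MCC and 2 µg of 102S, and 148 passed the test between them.

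Cxcr5, the follicle-homing receptor, was one of the genes matched by dose. It read 6.95, 7.24 and 6.51 log2 with 0.2 µg of MCC and 7.12, 7.49 and 6.85 with 2 µg of 102S, which overlap, with an interval from -0.79 to 0.29 log2. Both means, 6.90 and 7.15, lay near the 7.56 of 2 µg of MCC and well above the 3.71 of 0.2 µg of 102S. Cxcr6, the receptor for CXCL16, followed the same order, at 6.92 ± 0.63 and 6.86 ± 0.33 against 7.56 and 4.80, with an interval from -0.74 to 0.85 log2. A second Cxcr6 probe set differed by 0.69 ± 0.18 log2 (limma adjusted p = 0.077) with an interval from 0.29 to 1.09, so the match holds for 1 of its 2 probe sets. Hmgb2, a chromatin protein of dividing cells, was at 9.77 ± 0.43 and 9.60 ± 0.14, between the 10.98 of 2 µg of MCC and the 8.04 of 0.2 µg of 102S, and was called apart with the β-actin gap as a covariate.

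Other genes had intervals within 1 log2 at a level well short of 2 µg of MCC. Nrp1, the semaphorin and VEGF co-receptor neuropilin-1, read 6.40, 6.92 and 6.29 log2 with 0.2 µg of MCC and 5.80, 6.40 and 6.20 with 2 µg of 102S, with an interval from -0.07 to 0.89. Against these means of 6.54 and 6.13, 2 µg of MCC gave 9.35 and 0.2 µg of 102S gave 4.74. Both other Nrp1 probe sets were higher with MCC, by 0.61 and 0.55 log2, and did not pass. Their intervals ran from 0.0 to 1.23 and from 0.08 to 1.02, so the bound of 1 log2 held for the brightest Nrp1 probe set alone. Ccr9, the gut-homing receptor, moved the other way, reading 7.03, 6.47 and 7.03 against 6.88, 6.58 and 6.87, between the 3.69 of 2 µg of MCC and the 7.93 of 0.2 µg of 102S. Its interval ran from -0.40 to 0.53 log2.

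Slc9b2, a sodium and proton exchanger, was at 5.90 and 5.56 log2 in the 2 groups against 7.63 with 2 µg of MCC; its 3 MCC arrays all lay above the 102S arrays, with an interval from -0.12 to 0.79. Synpo, the actin-associated protein synaptopodin, was at 4.69 and 4.66 against 6.98, and Ptger2, a receptor for prostaglandin E2, at 4.86 and 4.79 against 6.55. The zinc finger genes Zfp948 and Zfp52 completed the 10 such genes, with intervals from -0.22 to 0.80 and from -0.01 to 0.65 log2, and Zfp52 was called with the β-actin covariate. With the replicate block 7467 genes had an interval within 1 log2. Pdlim4, a LIM domain protein, had an interval from -1.55 to -0.18 that reached past 1 log2 and was called with the block alone (limma adjusted p 0.209 without and 0.0186 with it).

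**Figure D4:**
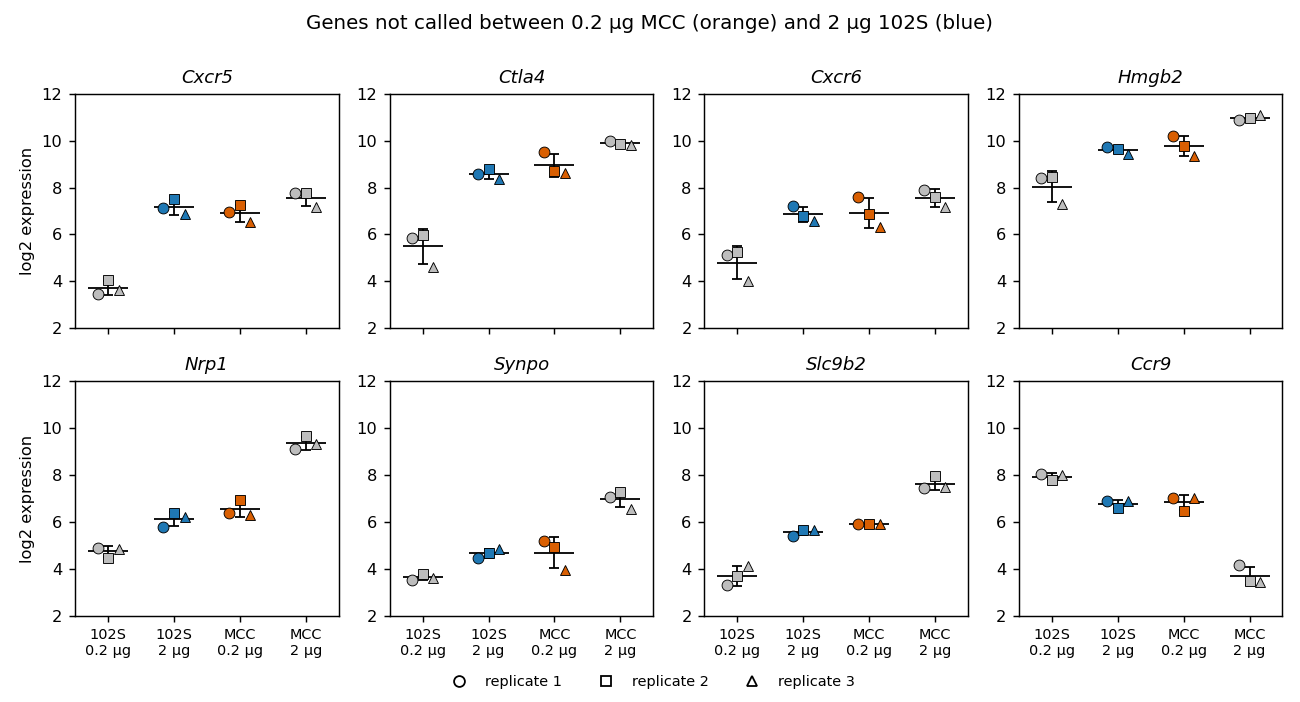
Log2 expression (vertical axis) of 8 genes on all 12 arrays, by peptide and dose (horizontal axis); symbols give the replicate number, the long bar the mean and the whiskers the SD of 3 arrays. Orange (0.2 µg MCC) and blue (2 µg 102S) were not called apart in any panel without further terms in the fit; in Cxcr5 and Cxcr6 both lie near 2 µg of MCC, and in Nrp1, Synpo, Slc9b2 and Ccr9 well away from it.

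The genes that separated 0.2 µg of MCC from 2 µg of 102S mostly separated 2 µg of MCC from 0.2 µg of 102S in the same direction. Of the 235 genes of the first comparison, 202 (86.0%) passed in the same direction in the second, 129 higher and 73 lower, and they make 9.2% of the 2195 genes of the second. The comparisons share no array but do share the estimate of spread. Across 7945 genes the differences correlated with r = 0.553 and rho = 0.399, as a description, since genes are not independent replicates.

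The 27 genes that passed in the first comparison alone were 13 higher and 14 lower with 0.2 µg of MCC. Art4, Hivep1 and Gbp2 were 3 of them. In Hivep1, for instance, 0.2 µg of MCC stood apart at 5.82 log2 from means of 6.61 to 7.04 in the other groups. In Gbp2 the low doses stood higher, at 9.89 for MCC and 9.75 for 102S, against 9.46 and 9.33 at the high doses.

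In 6 genes the comparisons passed in opposite directions. Of these, 5 were higher with 0.2 µg than with 2 µg whichever peptide was in the low-dose group. Slc7a5 read 7.21, 6.85 and 7.41 log2 with 0.2 µg of MCC and 6.54, 6.35 and 6.23 with 2 µg of 102S, while 0.2 µg of 102S gave a mean of 7.41 and 2 µg of MCC gave 6.68. Mthfd1, an enzyme of folate-borne one-carbon units, showed means of 8.05 and 8.12 at the low doses of MCC and 102S and 7.41 at both high doses.

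Smyd2, a lysine methyltransferase, was at 7.15 and 6.40 at the low doses of MCC and 102S and at 5.76 and 6.06 at the high doses. C1qbp, a mitochondrial matrix protein, was at 10.79 and 10.77 against 10.16 and 10.28, and Mif, the macrophage migration inhibitory factor, at 11.17 and 10.74 against 10.37 and 10.56. Psen2, the catalytic presenilin 2 of γ-secretase, was the reverse, at 8.44 and 8.41 at the low doses against 9.45 and 9.06. Between 0.2 µg of MCC and 2 µg of 102S these 6 differed by 0.51 to 1.09 log2 in size, and each of the 6 calls was lost in at least 3 of the 6 omissions, with replicate 3 of MCC among them for all 6. The other probe sets of Mthfd1 and C1qbp did not pass.

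**Figure D5:**
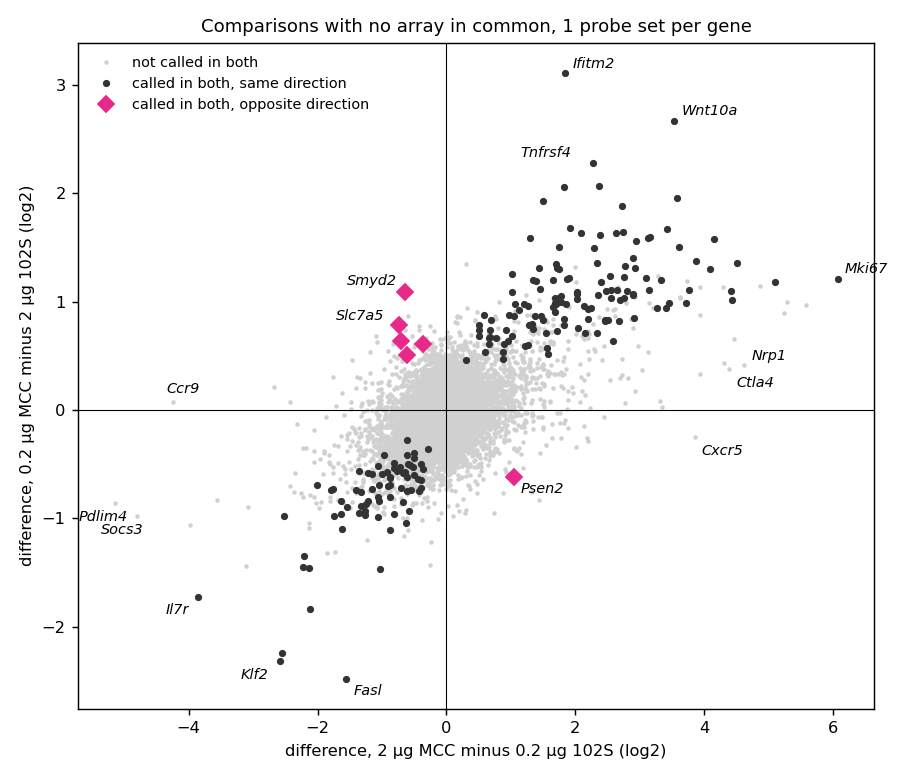
Each point is 1 gene, placed by its log2 difference between 2 µg MCC and 0.2 µg 102S (horizontal axis) and between 0.2 µg MCC and 2 µg 102S (vertical axis), which share no array; dark points passed in both in the same direction, diamonds in opposite directions. The 202 dark points lie at lower left and upper right, and the diamonds are 5 genes higher (upper left) and 1 gene lower (lower right) in the low-dose group of both comparisons.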

How the data were processed

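Expression was measured on 12 Affymetrix mouse arrays, 3 for each peptide and dose. The deposited series table holds 1 log2 value per probe set and array. Its scale was read from the values, which run from 1.86 to 14.7; the submitters' processing notes name the software GCOS 1.4, and the summary and background methods are not given in the sources used here. Array medians differ by at most 0.0893 log2, and the values were used as deposited. Arrays have no read depth, and their number limits the precision: the median standard error of a difference was 0.184 log2.

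Gene names came from the platform annotation, with 20364 Entrez identifiers found in a RefSeq table (GRCm38.p6) that changed 0 symbols; 691 probe sets with several symbols and 1606 with none were not named. Control probe sets (64) and low probe sets, with a mean below 4.48 log2 (the 40th percentile), were not tested, which left 13556. A gene was represented by its probe set with the highest mean. With limma 3.58.1 in R 4.3.3, lmFit and eBayes (intensity trend, 4 group means, 12 arrays) gave 2-sided p-values, adjusted by Benjamini-Hochberg over 13556 probe sets, with a threshold of 0.05, and 95% intervals. A difference from a group mean under the filter is an estimate that may be understated. The filter is a percentile and no detection limit was measured. In the text ± after a level is the SD over 3 arrays and ± after a difference is the SE of the fit.

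Deviations of same-numbered arrays of the 2 groups correlated at 0.822, 0.393 and 0.576. Replicate 3 of 102S also correlated with replicate 2 of MCC (0.434), and replicate 2 of 102S with replicate 3 of MCC (0.342). The correlations thus set replicate 1 apart and do not settle whether replicates 2 and 3 pair by number. Among all 18 same-numbered pairs of the 4 groups, 2 were negative, at -0.0637 and -0.287. The block was fitted as an alternative. Others changed the filter, scaling, arrays in the fit, RNA quality and sex-type terms, eBayes options and probe sets.

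Named were the 12 highest and 12 lowest called differences without overlap (unnamed clones left out), up to 4 genes of each of 24 lists by smallest p, up to 6 genes called in both comparisons in each direction, 10 genes within 1 log2 but far apart in the second comparison, and 37 key genes, not all of which are reported here. Members, lists and key genes were chosen with earlier results of these data known. On simulated arrays with 13556 probe sets the fit recovered 75% of changes of 1 log2 and 91% of those of 2 log2, with 11 false calls. The simulated errors were independent between arrays, without the shared deviations of the real ones, so these rates do not measure the errors made here.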

Additional observations from a re-analysis of the deposited data

How the results depend on the processing

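Of the probe sets called between 0.2 µg of MCC and 2 µg of 102S, the count of 336 was 150 with the 6 arrays alone, 1147 with the replicate block, 874 with sex type as a block, 130 with the 8 male-type arrays alone and 1176 with the β-actin gap as a covariate. A replicate block within the 6 arrays, chosen after seeing the data, called 2907. Leaving out 1 array gave between 85 and 654. The 336 were all among the calls of the 3 blocked fits and the covariate fit, and the cause of the differences in count was not tested. Without a filter the count was 282, with a filter at the 60th percentile 262, with median centring 383, with quantile normalization 469, without the trend 282 and with robust eBayes 333. The replicate block moved the count between 2 µg of MCC and 0.2 µg of 102S from 3447 to 4815. The 7092 genes with an interval within 1 log2 became 2795 at 0.5 log2. The difference between the groups' β-actin gaps, 0.38 log2, lay between 0.02 and 0.81 with 1 array left out.

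Of 60 called named genes (Ighm and Cd74 not counted), 22 kept the call in every alternative and omission and 0 reversed; the block ended 0 calls and added 32 among 72 named genes not called. Of 2482 differences compared, 19 changed sign, all of genes called neither way. Of 23 called named genes with other tested probe sets, 12 had at least 1 that did not pass. The differences of Ifitm2, Plscr1, Serpinc1, Il2ra, Ccr6 and Fasl may be understated, since a group mean of each lay under the filter.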
